A study of Homo sapiens with 2 samples.

Results

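The heat shock protein and cochaperone genes described here are 10 genes, followed in a liver cancer line (Huh-7, from a human hepatocellular carcinoma) that had been treated for 24 h with BS008. The genes were HSPA1A, HSPA1B, HSPA1L, HSPA6, HSPA8, HSP90AA1, HSPH1, DNAJB1, HSPB1 and BAG3. BS008 is a derivative of amiloride, a potassium-sparing diuretic, and the study asked which transcripts it alters in cancer cells. The control cells received 0.1% DMSO and the treated cells 0.1 mM BS008. These are the treatments entered for each sample, whereas the protocol text of the control sample names BS008 as well, so that the direction of every ratio rests on the former. Each condition has 1 library (no replicates), so that no spread between cultures, no SD and no test is given for any value. Each value is the number of reads counted on 1 exon row, a listed stretch of the genome with its strand. The files give no gene names. The rows were therefore chosen by position, as those lying inside a window drawn around each gene on its strand. Of 239322 exon rows, 55 lay inside the windows, and these belonged to 9 of the 10 genes. A further 2 rows only touched a window, 1 at HSPA6 and 1 at HSP90AA1, and they are given apart from the others. Coordinates of rows are those of hg19, the build named in the submitters' processing notes. Of the 55 rows, 38 had the length of an exon of the same gene in GENCODE release 29, which was the only link made between the rows and that annotation. No row of HSPA1A, HSPA1B or HSPA1L had such a length, nor did the row touching the HSPA6 window. The 10 genes were kept whether or not their rows matched.

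The libraries held 55476654 reads counted on exon rows in control cells and 53578432 after BS008. Hepatocyte genes were read in both libraries, since albumin (ALB) stood at 2164 and 2521 RPKM (reads scaled to the length of the rows and to the library total) and alpha-fetoprotein (AFP) at 1178 and 806. The leukocyte gene PTPRC had 0 reads in either library, against a limit of 3 reads that a count of 0 allows, and the fibroblast gene COL1A1 had 14 and 6. Whether the libraries and the counting kept the strand is not given in the sources used here. At HSPA1A, 3 rows listed on the opposite strand overlap its row. The longest (chr6:31783647-31785722) had 8471 and 7415 reads, close to the reads of HSPA1A itself. The others had 376 and 243 reads in control cells and 220 and 139 after BS008. Whether these are reads of HSPA1A counted on both strands was not tested. Reads from HSPA1A and from a transcript of the other strand cannot be told apart there. In whole cultures, fewer cells that express a gene and less of its RNA per cell cannot be told apart either.

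Heat shock proteins are chaperones, which hold, fold or disaggregate other proteins. The HSP70 proteins bind unfolded stretches with the help of J-domain proteins such as DNAJB1, and nucleotide exchange factors such as HSPH1 and BAG3 release them, while HSP90 acts later on kinases, receptors and other clients. When unfolded proteins accumulate, the transcription factor HSF1 forms a trimer and binds heat shock elements, inverted repeats of the 5-base unit nGAAn, in front of these genes. HSPA8 and the HSP90 genes are also read at a high level in unstressed cells, whereas HSPA6 is nearly silent until cells are stressed.

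The sequences in front of the genes are shown because heat shock elements there are the known switch of this response. Each is the 250 bases before a start site listed by RefSeq (GRCh38.p14), 5′ to 3′ on the strand of the gene. Capitals mark GAANNTTC or TTCNNGAA, in which N is any base, that is 2 adjoining units of the element. Each motif reads the same on both strands, and motifs that share a unit overlap. All 10 genes were found in the RefSeq table, with 13 start sites. A pair was present at 8 of these 13 start sites, each of a different gene, against 11.58% of all 35116 start sites. A run of 3 alternating units was present at HSPA6, HSPA8 and HSP90AA1, and at 0.4414% of all start sites. None was found in the windows of HSPH1 and BAG3. Of the other chaperone genes described further on, 15 were found in the table and 5 of these held a pair, with runs of 3 units at CHORDC1, HSP90AB1 and HSPD1. These are matches of letters, and binding was not measured.
HSPA6, chr1:161524290-161524539, plus strand: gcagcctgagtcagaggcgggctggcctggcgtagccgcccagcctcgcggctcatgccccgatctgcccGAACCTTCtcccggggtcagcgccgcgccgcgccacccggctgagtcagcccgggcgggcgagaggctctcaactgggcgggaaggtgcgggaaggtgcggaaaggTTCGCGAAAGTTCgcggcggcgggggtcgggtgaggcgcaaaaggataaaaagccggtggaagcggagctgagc
HSPA8, chr11:123062137-123062386, minus strand: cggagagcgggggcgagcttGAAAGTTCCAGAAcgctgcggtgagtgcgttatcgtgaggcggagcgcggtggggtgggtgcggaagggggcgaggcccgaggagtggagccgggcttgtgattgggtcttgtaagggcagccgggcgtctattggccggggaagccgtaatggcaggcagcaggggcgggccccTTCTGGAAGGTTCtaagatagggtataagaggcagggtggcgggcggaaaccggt
HSP90AA1, chr14:102087045-102087294, minus strand: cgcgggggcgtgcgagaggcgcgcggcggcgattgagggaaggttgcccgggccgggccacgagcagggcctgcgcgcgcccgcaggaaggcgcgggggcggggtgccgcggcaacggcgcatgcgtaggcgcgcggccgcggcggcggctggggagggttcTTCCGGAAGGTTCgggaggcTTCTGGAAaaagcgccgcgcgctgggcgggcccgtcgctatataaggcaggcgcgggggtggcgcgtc
DNAJB1, chr19:14518398-14518647, minus strand: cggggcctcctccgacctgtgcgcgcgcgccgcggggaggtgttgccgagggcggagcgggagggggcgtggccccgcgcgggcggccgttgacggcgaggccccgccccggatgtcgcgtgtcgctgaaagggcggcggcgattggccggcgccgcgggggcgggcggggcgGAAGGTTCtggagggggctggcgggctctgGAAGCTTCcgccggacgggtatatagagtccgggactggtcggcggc
HSPB1, chr7:76302423-76302672, plus strand: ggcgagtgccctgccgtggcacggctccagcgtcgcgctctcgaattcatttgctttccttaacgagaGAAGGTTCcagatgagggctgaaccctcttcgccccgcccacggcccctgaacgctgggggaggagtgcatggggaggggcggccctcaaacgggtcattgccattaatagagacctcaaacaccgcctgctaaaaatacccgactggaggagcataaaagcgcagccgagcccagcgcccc
HSPA1A, chr6:31815293-31815542, plus strand: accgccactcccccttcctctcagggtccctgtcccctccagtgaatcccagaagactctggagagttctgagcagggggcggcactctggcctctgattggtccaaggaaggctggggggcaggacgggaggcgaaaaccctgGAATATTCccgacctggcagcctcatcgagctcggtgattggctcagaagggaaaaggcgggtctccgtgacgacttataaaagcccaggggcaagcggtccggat
HSPA6 held 3 pairs, HSPA8 held 4, HSP90AA1 held 3 and DNAJB1 held 2. HSPB1 and HSPA1A held 1 each, from base -182 to -175 and from base -106 to -99 before the start, respectively. For HSP90AA1 and DNAJB1, the window shown belongs to the second of the listed starts, and the other starts of these genes held no pair. HSPA1B held 1 pair at nearly the same place as HSPA1A, from base -105 to -98. HSPA1L starts on the opposite strand next to HSPA1A, and its only pair is the same 8 bases as that of HSPA1A.

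The heat shock genes together had fewer reads after BS008, with HSPA6 going the other way. The HSPA6 row, which only touches its window, is not in the totals that follow. The reads on the 55 rows inside the windows went from 320531 to 223178, or from 0.578% to 0.417% of the library. HSPA8 and HSP90AA1 together held 80.9% of these reads in control cells and 79.1% after BS008. Changes are given as the log2 ratio of BS008 to control of CPM, that is reads scaled to the library total, with 0.5 added, for rows with at least 10 reads in either library. Of the 52 rows inside the windows that reached 10 reads, 45 (86.5%) were lower after BS008 and 7 higher, whereas 53.2% of all 131330 rows with enough reads were lower. The median log2 ratio of the 52 rows was -0.41, and that of all rows was -0.04.

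Most of these differences were moderate. At 2-fold, 0 of the 52 rows were higher, against 3.73% of all rows, and 0 were lower, against 3.79% of all rows. At 1.5-fold, 15 of the 52 rows (28.8%) were lower, against 13.9% of all rows, and 0 were higher, against 11.5%. Rows of 1 gene share its transcripts and are not independent of each other. Of the 15 rows past 1.5-fold, the members were exons of HSP90AA1, HSPB1 and BAG3, together with the main row of HSPA1L. The remaining 3 of the 55 rows, the first row of HSPA1L and 2 upstream rows of DNAJB1, had at most 2 reads in control cells and 0 after BS008. Summed over its rows, each of the 9 genes with rows inside a window had a log2 ratio below 0, although that of HSPA1B was 0.0046 with TMM scaling.

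**Figure D1:**
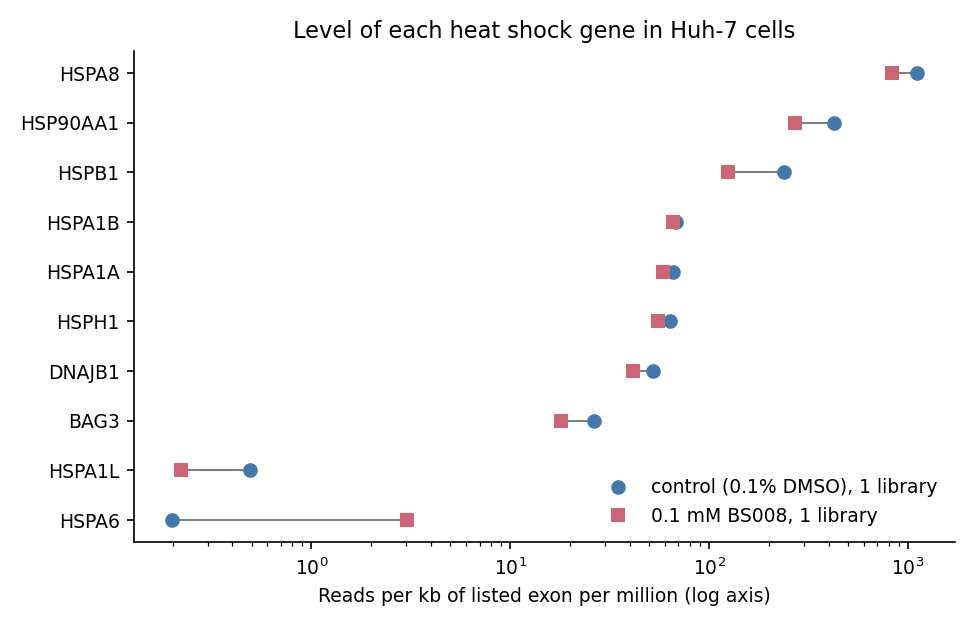
Level of each of the 10 heat shock genes, as RPKM on a log axis, in the control library (circles) and the BS008 library (squares). HSPA8 has the highest level and HSPA6 the lowest in control cells, and HSPA6 alone lies to the right after BS008. HSPA6 is shown by the row that touches its window.

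Per length, control cells had the most reads on HSPA8 (1115 RPKM), followed by HSP90AA1 (424), HSPB1 (237), HSPA1B (68.0), HSPA1A (65.6), HSPH1 (63.9), DNAJB1 (51.9), BAG3 (26.5), HSPA1L (0.490) and HSPA6 (0.198). After BS008 the order was HSPA8 (831 RPKM), HSP90AA1 (269), HSPB1 (124), HSPA1B (65.9), HSPA1A (58.6), HSPH1 (55.5), DNAJB1 (41.3), BAG3 (17.9), HSPA6 (3.02) and HSPA1L (0.221). The order differed only in the last 2 places. Without a second culture it cannot be said which neighbours in this order differ, and HSPA1A, HSPA1B and HSPH1 lay within a few RPKM of each other in control cells.

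HSPA6 encodes HSP70B′, a strictly stress-inducible HSP70 that mice and rats lack. Its row (chr1:161493768-161496685, plus strand, 2918 bases) had 32 reads in the control and 472 after BS008. HSPA6 thus rose 15.3-fold relative to the library total, with an exact 95% Clopper-Pearson interval of 10.7 to 22.6. This interval and all those given below cover the counting of reads only, not the difference between cultures. On the log2 scale with 0.5 CPM added, which understates the change of rows with few reads, the difference was 3.11. Of all 131330 rows with enough reads, 134 (0.102%) rose by as much or more. This row begins 232 bases before the window of HSPA6 and was included after its values had been seen. Its first 35 bases overlap another row of the same strand, and how reads there were assigned was not tested. With the 2 touching rows added, 1 of 54 rows (1.85%) was at least 2-fold higher, against the 3.73% of all rows given above. Even after BS008, HSPA6 stayed at 3.02 RPKM, while HSPA1A and HSPA1B stood at 58.6 and 65.9.

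HSPA6 has a near copy downstream, HSPA7, a transcribed pseudogene. Of the 50-base words in the HSPA6 transcript of GENCODE, 45.5% also occur in HSPA7, and the length of the reads is not given in the sources used here. The row taken as HSPA7 (chr1:161575849-161578341, plus strand) ends 81656 bases after that of HSPA6, which is the distance between the 2 genes in RefSeq as well. It had 6 reads in the control and 73 after BS008, a ratio of 12.6 (5.52 to 35.4). Both copies were thus higher, and how the counting split shared reads between them was not tested. The log2 ratio of their sum was 3.17. HSPA7 was chosen after its values had been seen.

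HSPA1A and HSPA1B, 2 neighbouring genes for the same major stress-inducible HSP70, did not move with HSPA6. HSPA1A consists of 1 row (chr6:31783291-31785717, plus strand) with 8826 reads in control cells and 7619 after BS008. The ratio was 0.894 (0.867 to 0.922). HSPA1B (chr6:31795512-31798031, plus strand) had 9506 and 8901 reads, a ratio of 0.970 (0.942 to 0.998). These genes share 71.3% and 71.4% of their 50-base words with each other, so their separate values are uncertain. Their sum was 18332 reads in control cells and 16520 after BS008, at a ratio of 0.933 (0.914 to 0.953) and a log2 ratio of -0.10. The direction of HSPA1B rests on the scaling, since its log2 ratio was -0.04 by library total and 0.0046 with TMM factors.

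HSPA1L, a relative of these genes known mainly from the testis, was near the floor of detection in Huh-7 cells. Its main row (chr6:31777397-31779762, minus strand) had 68 reads in the control and 30 after BS008. On both of its rows together, the reads were 69 and 30, a ratio of 0.450 (0.283 to 0.701). The log2 ratio with 0.5 CPM added was -0.72 and thus short of 2-fold, while the plain ratio was past it. Of its 50-base words, 2.45% occur in HSPA1A and HSPA1B, which have over 100 times as many reads.

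HSPA8 encodes HSC70, the constitutive HSP70 of the cytosol and nucleus. It accounted for 165580 reads in control cells and 119140 after BS008 on its 7 rows (chr11:122928201-122932844, minus strand). The ratio was 0.745 (0.739 to 0.751) and the log2 ratio -0.42. All 7 rows were lower, with log2 ratios from -0.54 to -0.28. The row with the most reads (chr11:122928201-122928627), which lies at the 3′ end, went from 45560 to 33151 reads. The first row, of 73 bases, was the highest per length, at 2802 RPKM in control cells and 2001 after BS008, whereas the third row was the lowest at 445 and 366. Part of its sequence is shared, as 10.6% of its 50-base words occur in 13 other genes.

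HSP90AA1, the stress-inducible cytosolic HSP90, was lower by more. Its 12 rows (chr14:102547076-102568422, minus strand) had 93758 reads in the control and 57389 after BS008. The ratio was 0.634 (0.627 to 0.640) and the log2 ratio -0.66. Of the 12 rows, 11 were lower. The row with the most reads (chr14:102551018-102551335) went from 16499 to 9211 and had the lowest log2 ratio, -0.79. The remaining row lies upstream of the others (chr14:102568212-102568422), with 7 reads in control cells and 16 after BS008. A row farther upstream that ends 86 bases past the window (chr14:102605587-102606086) had 12 and 13 reads. These 2 upstream rows, at 0.598 and 0.433 RPKM in control cells, were far below the 935 RPKM of the row with the most reads. Of the 50-base words of HSP90AA1, 18.5% occur in other genes, among them the copy HSP90AA2P with 10.7%.

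**Figure D2:**
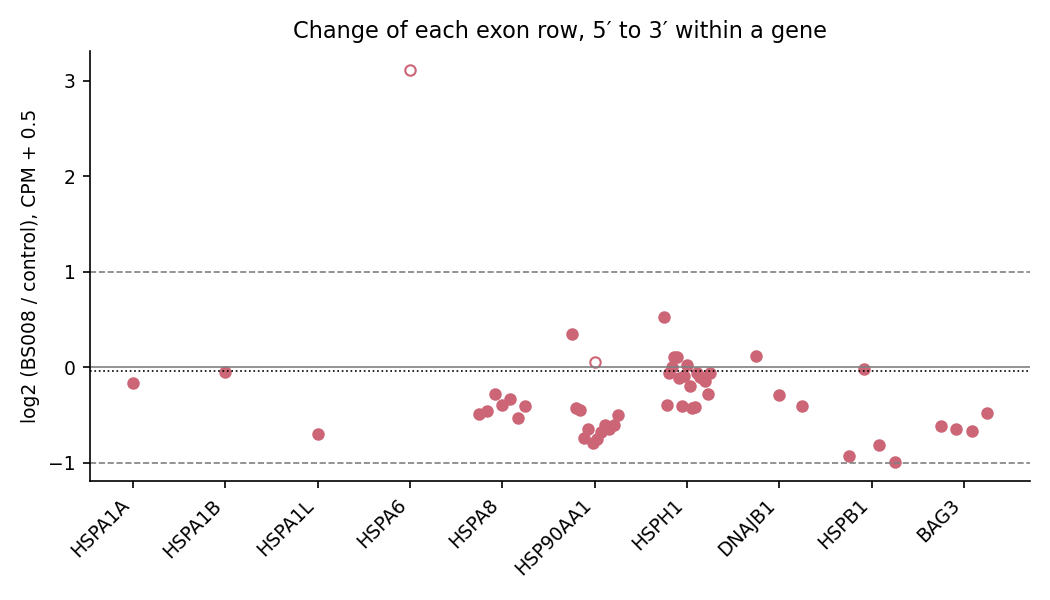
Log2 ratio of BS008 to control (CPM with 0.5 added) of each row with at least 10 reads in either library, by gene and, within a gene, from 5′ to 3′. Filled circles are rows inside a window, and open circles are the 2 rows that touch one, placed at the middle of their gene. Dashed lines mark 2-fold and the dotted line marks the median of all rows (-0.04). Only the open circle of HSPA6 (3.11) lies past 2-fold, and the last row of HSPB1 (-0.99) lies just short of it.

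Among BAG3, DNAJB1 and HSPH1, the cochaperones of the 10 genes, BAG3 was lower by the most. BAG3 joins HSP70 to small heat shock proteins and to the autophagy of aggregates. It had 3768 reads in the control and 2460 after BS008 on its 4 rows (chr10:121410882-121437327, plus strand), at a ratio of 0.676 (0.642 to 0.711) and a log2 ratio of -0.56. All 4 rows were lower, from -0.67 to -0.48, and the last row, which had the most reads, went from 2258 to 1560. DNAJB1, or HSP40, stimulates the ATPase of HSP70. It had 6756 and 5185 reads on 5 rows (chr19:14625582-14640049, minus strand), a ratio of 0.795 (0.766 to 0.824). Its last row (chr19:14625582-14626982) went from 3576 to 2598 reads and the row before it from 2869 to 2263, at log2 ratios of -0.41 and -0.29. The third row (chr19:14628951-14629201) had 307 reads in the control and 324 after BS008, and thus did not share the direction of the others.

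HSPH1 encodes HSP105, a large relative of HSP70 that acts as its nucleotide exchange factor. On 19 rows (chr13:31710765-31736502, minus strand), it had 18519 reads in the control and 15531 after BS008. The ratio was 0.868 (0.850 to 0.887) and the log2 ratio -0.20. Of the 19 rows, 14 were lower and 5 higher, with log2 ratios between -0.42 and 0.53. The row with the most reads (chr13:31719700-31719905) went from 2744 to 1971 and was the lowest. The value of 0.53 came from the first row (chr13:31736119-31736502), which had 3 reads in the control and 16 after BS008. No 50-base word of HSPH1 or BAG3 was found in another gene.

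HSPB1 encodes HSP27, a small heat shock protein that binds unfolding proteins without ATP, and it had the lowest ratio among those of the 10 genes with more than 100 reads. It had 13749 reads in the control and 6923 after BS008 on 4 rows (chr7:75931875-75933610, plus strand). The ratio was 0.521 (0.506 to 0.537), with a log2 ratio of -0.94 that is just short of 2-fold. The first row went from 5753 to 2908 reads, the third from 1853 to 1006 and the last from 6081 to 2950. The last row, at -0.99, lay closest to 2-fold, and 3.95% of all rows with enough reads were at or below it. The second row (chr7:75932894-75933044) had 62 and 59 reads and thus stood apart from the other rows. Of the 50-base words of HSPB1, 9.70% occur in its pseudogene copies.

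**Figure D3:**
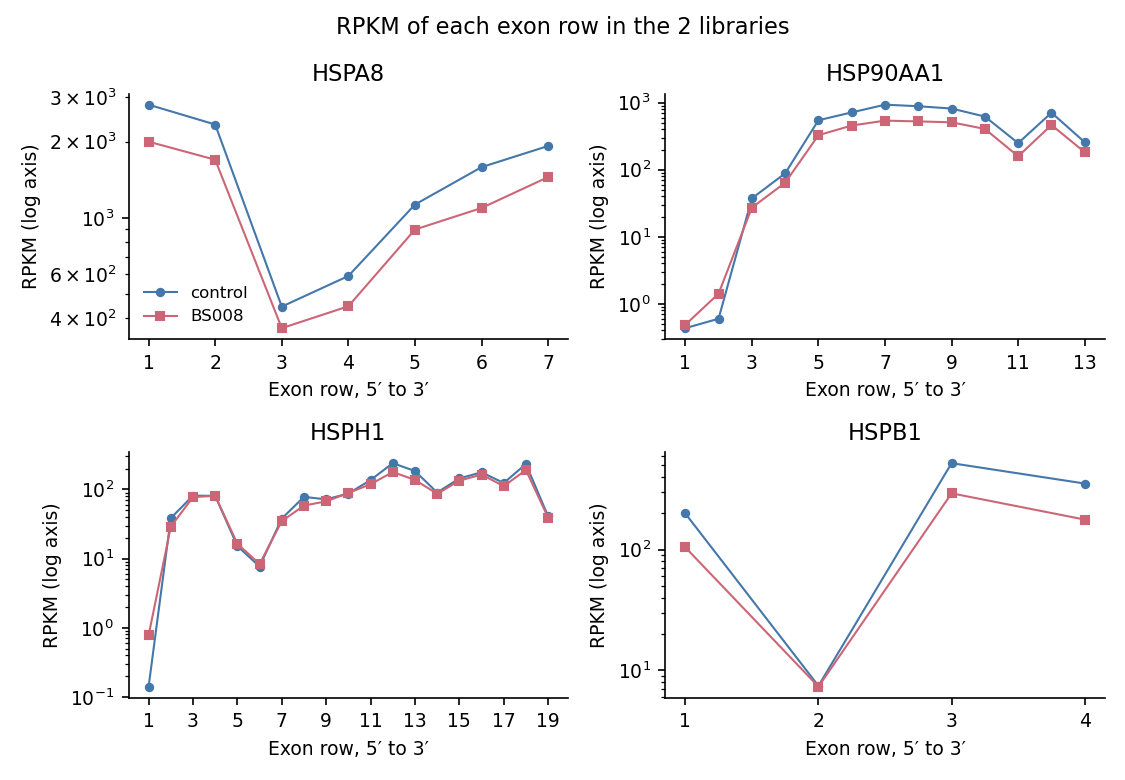
RPKM on a log axis of each row of HSPA8, HSP90AA1, HSPH1 and HSPB1 from 5′ to 3′, in control cells (circles) and after BS008 (squares). The lines of the 2 libraries run in parallel over HSPA8 (7 of 7 rows lower) and over rows 3 to 13 of HSP90AA1, lie closer together over rows 2 to 19 of HSPH1 than at its first row, with 3 and 16 reads, and meet at row 2 of HSPB1, with 62 and 59 reads. Row 1 of HSP90AA1 is the row that touches the window.

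As the study concerns alternative splicing, it was asked whether single exons of these genes moved against their neighbours. The share of a row was the percent of reads that it held among itself and the nearest row on each side, on the same strand and within 10 kb, with at least 20 reads in each library. Of 52 rows with such a share, 0 rose by at least 10 percentage points, against 3.68% of all 126394 rows, and 1 fell, against 3.43% of all rows. They are not wholly the 52 rows with a ratio. The first row of HSPA1L and an upstream row of DNAJB1 entered. The first row of BAG3 and the upstream row of HSP90AA1 inside the window had no neighbour within 10 kb. The median absolute change was 1.40 points in these 52 rows and 2.16 points in all rows. The set of all rows includes rows with as few as 20 reads together with their neighbours, and read depth was not matched between the sets. The row that fell was the main row of HSPA1L, from 33.2% to 15.2%, or by 17.9 points. Its neighbours had 137 reads in the control and 167 after BS008, of which the other row of HSPA1L gave 1 and 0, so that the share was set almost wholly by a row outside the window. The largest rise, of 3.88 points, was in the last row of HSPH1, which held 49.3% in control cells and 53.2% after BS008.

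HSPH1 is spliced into a long form and a short form, which lacks an internal exon. The row with the length of that exon (chr13:31717929-31718060) had 1356 reads in the control and 974 after BS008. It held 28.3% of the reads among its neighbours in control cells and 27.2% after BS008, and 7.32% and 6.27% of all reads of the gene. Of the rows beside it, the one before had a log2 ratio of -0.42, as did the row itself, and the one after had -0.06, from 692 to 640 reads. An exon of this length is present in 5 of the 9 HSPH1 transcripts in GENCODE. In HSPA8, shares moved between -1.90 and 1.87 points over its 7 rows, and in BAG3 by -2.08 to 2.69 points. Reads that join exons were not analysed here.

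The rest of the chaperone system was followed in 17 further genes from a list of 18 (CRYAB was left out because too few of its rows matched the gene's exon lengths). At 2-fold, 2 of the 17 genes fell, 1 rose and 14 lay between, from -0.62 to 0.75, with a median log2 ratio of -0.02. On the level of rows, 11 of 195 (5.64%) were at least 2-fold lower and 6 (3.08%) at least 2-fold higher, against 3.79% and 3.73% of all rows. The median log2 ratio of these 195 rows was 0.04, whereas that of the 52 rows of the heat shock genes was -0.41. The 195 rows also cover chaperones of the mitochondria and endoplasmic reticulum and the heat shock factors. Of the cytosolic genes, log2 ratios were below 0 for DNAJA1 (-1.27), HSPA4L (-0.62), STIP1 (-0.54), HSPA2 (-0.52), CHORDC1 (-0.38), AHSA1 (-0.19) and HSPA4 (-0.02). Those of HSP90AB1 (0.13) and FKBP4 (0.11) were above 0.

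HSPE1, the mitochondrial cochaperonin HSP10, had 52537 reads in the control and 12405 after BS008, and fell to a ratio of 0.244 (0.240 to 0.249) with all 4 rows at least 2-fold lower. Its partner HSPD1, or HSP60, lies next to it on the opposite strand and had 57934 and 55969 reads, a log2 ratio of 0.00. The genes share a bidirectional promoter. With words matched on either strand, 44.4% of the 50-base words of HSPE1 occur in other genes, HSPD1 among them with 21.6%. The first row of HSPE1 (chr2:198364721-198365163) overlaps rows 1 and 2 of HSPD1, which are listed on the opposite strand. These HSPD1 rows had 270 and 19 reads in the control and 149 and 8 after BS008. DNAJA1, a J-domain partner of HSPA8, fell from 13496 to 5372 reads, at a ratio of 0.412 (0.399 to 0.425), with 7 of 9 rows at least 2-fold lower. HSPA13, an HSP70 of the endoplasmic reticulum, rose from 2633 to 10813 reads, at a ratio of 4.25 (4.07 to 4.44), with 5 of 5 rows past 2-fold.

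**Figure D4:**
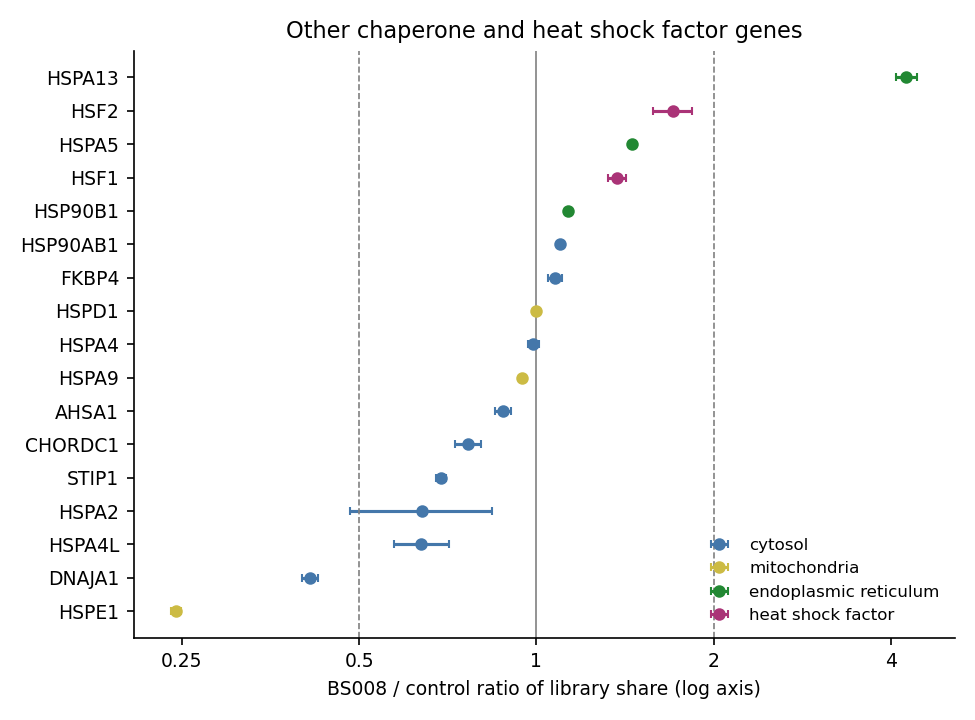
Ratio of BS008 to control of the share of the library held by each of 17 other chaperone and heat shock factor genes, on a log axis, coloured by the compartment of the protein. Bars are exact 95% intervals that cover the counting of reads only, and dashed lines mark 2-fold. HSPA13 (4.25) lies to the right of 2-fold, DNAJA1 (0.412) and HSPE1 (0.244) lie to the left, and the other 14 lie between.

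Close relatives of the heat shock genes lay on both sides of 1. Among further HSP70 and J-domain genes, the ratio was below 1 for HSPA4L (0.638), HSPA2 (0.639), HSPA9 (0.945) and HSPA4 (0.988), as well as for DNAJA1, although the log2 ratio of HSPA4 turned to above 0 with each other scaling. HSP90AB1, the constitutive cytosolic HSP90, had 122406 reads in the control and 129810 after BS008 (862 and 946 RPKM), and all 12 of its rows were higher, whereas 11 of 12 rows of HSP90AA1 were lower. The log2 ratios of these HSP90 genes were 0.13 and -0.66. HSPA5 (BiP), the HSP70 of the endoplasmic reticulum, had 66135 and 92799 reads, a ratio of 1.45, whereas that of HSPA8 was 0.745. Summed over their rows, the heat shock factors themselves were short of 2-fold. HSF1 stood at 42.6 RPKM in control cells and 58.4 after BS008, and HSF2 at 6.60 and 11.2, with log2 ratios of 0.45 and 0.75. All 13 rows of HSF1 were higher, with log2 ratios from 0.12 to 1.11. Of these, 1 was past 2-fold (chr8:145537648-145537717), from 160 to 364 reads. No difference between these genes was tested, since each condition has 1 library.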

How the data were processed

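RNA of Huh-7 cells was sequenced with an mRNA-seq kit from 1 control and 1 BS008 library, both of which were used. The authors deposited raw read counts for 239322 exon rows of hg19 (build from the submitters' processing notes). The authors also deposited RPKM values, and recomputing them from the counts and library totals gave the same values within 4.72e-06. Which annotation and which tools for alignment and counting were used, and how long the reads were, is not given in the sources used here.

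The members and gene lists were chosen with earlier results of these data known. Rows of a gene were those wholly inside its hg19 window. A window of another gene was used only if 0.5 or more of its rows had the length of a GENCODE release 29 exon of that gene. No coordinates were converted. The 10 genes were all named. Of the other chaperones, those past 2-fold, the highest level and the largest changes were named. HSPD1, HSPA5, HSPA2, HSPA4, HSPA4L, HSPA9, CHORDC1, STIP1, AHSA1, FKBP4, HSF1 and HSF2 were chosen after their values were seen. HSPA7, the row touching the HSPA6 window, the second row of HSPB1, rows 1 and 2 of HSPD1 and the named row of HSF1 were chosen likewise.

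Ratios used CPM by library total for rows that reached 10 reads in either library, and 0.5 was added as a pseudocount. Intervals are exact Clopper-Pearson intervals of the count ratio at 95%. With 1 library for each condition there is no test. RPKM of a gene is the sum of reads over the summed length of its rows. Shared sequence was measured as 50-base words of GENCODE transcripts, matched on either strand. Python 3.11.15, numpy 2.4.6, pandas 2.3.3, scipy 1.17.1, matplotlib 3.10.9, R 4.3.3 and edgeR 4.0.16 (for TMM and RLE factors) were used. The code was tested on simulated data. Alternatives were the scaling, pseudocount, read minimum, fold, neighbour distance and share threshold, and, added after seeing the data, rows touching a window and the sum of HSPA6 and HSPA7.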

Additional observations from a re-analysis of the deposited data

How the results depend on the processing

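No paired analysis was possible because each condition has 1 library, and no library could be left out for the same reason. Of 29 alternative counts, 22 stayed within 1.5 times the count reported and 7 did not. With a pseudocount of 0.1, 1 row of the 52 was at least 2-fold higher (the first row of HSPH1) and 1 lower (the main row of HSPA1L), in place of 0 and 0. A threshold of 1.5-fold gave 15 lower rows, and adding the rows that touch a window gave 1 higher row, that of HSPA6. The count of rows whose share moved by 10 points, 1 in the report, was 0 with neighbours within 1 kb and 0 with a threshold of 20 points. At 1.5-fold, 5 in place of 3 of the other chaperone genes changed. Of 102 gene values, 66 moved by less than the distance from the middle of their counting interval to its end on the log2 scale. The other 36 moved by more, and 0 reversed in a gene past 2-fold. For genes with many reads, TMM factors raised log2 ratios by 0.05, RLE factors by 0.03 and leaving out mitochondrial rows by 0.02. Genes with few reads moved otherwise, as HSPA1L went to -0.74 and HSPA6 to 3.20 without mitochondrial rows. Among genes short of 2-fold, HSPA1B (0.0046 with TMM) and HSPA4 (0.0324 with TMM, 0.0154 with RLE and 0.0042 without mitochondrial rows) changed sign. HSPE1 was -1.98 with TMM and stayed past 2-fold, as did HSPA6 (3.72 with a pseudocount of 0.1). Depth limits HSPA1L, HSPA6 in control cells and HSPA7, whose counts were under 100. The spread between cultures was not measured.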
